A study of Mus musculus with 6 samples.

Results

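The 55 genes described here encode the ligands, receptors, antagonists and intracellular transducers of the TGF-beta, BMP and activin pathways. They were chosen by gene symbol from a list drawn up with earlier results of these data known. All 55 of 55 were found among the 19084 gene symbols of the array, on 60 of its 26423 probes. Gene expression was measured on 6 single-colour microarrays of cells from mice of the ICR strain, in 3 groups of 2 arrays. The GSC colony arrays held RNA of total testicular cells from 80 newborn to P2 mice, grown for 7 days in 5% O2 until colonies could be picked. The PGC colony arrays held RNA of colonies grown in the same way for 7 days in 5% O2, but from total gonadal cells of 67 embryos at E11.5. Both kinds of colony grew on laminin at 200 ng/cm2 with insulin, transferrin, selenium and epidermal growth factor at 10 ng/ml. The CD49f+ sorted arrays held RNA of uncultured testicular cells from 100 newborn to P2 mice, taken by magnetic sorting with an antibody to CD49f, an integrin subunit, and labelled as being in physiological hypoxia with no oxygen value. In the labels GSC stands for glandular stem cells, and PGC for primordial germ cells. They give no sex for the embryos and leave unsaid if a group's 2 arrays had separate cell preparations. The p-values therefore rest on a spread between arrays that may be technical.

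Ligands of this superfamily are secreted dimers that bring type II and type I receptor kinases together on the cell surface. TGF-betas and activins lead mainly to phosphorylation of Smad2 and Smad3, and BMPs to that of Smad1 and Smad5, and each set moves to the nucleus with Smad4. Smad6 and Smad7 feed back on the receptors, secreted antagonists trap the ligands, and Id genes are direct targets of BMP signalling. In the testis, Sertoli cells secrete inhibin and activin, which act on the pituitary and within the tubule, and BMPs of somatic cells act on germ cells and their precursors.

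Every level below is a normalized probe intensity on the log2 scale, and every difference is on that scale with its standard error (SE) from 1 limma fit of all 6 arrays. Changes were called where p, adjusted by Benjamini-Hochberg over the 15459 genes tested, was under 0.05. Levels of different probes cannot be set against each other. Genes entered the test if they reached their array's 30th percentile, a log2 level of 7.82, on no fewer than 2 of 6 arrays. Of the 55 genes, 51 passed that filter. Bmp3, Bmp15, Gdf6 and Nodal did not, with log2 levels between 5.87 and 8.03 over the 6 arrays. Where both arrays of a group lay under the 30th percentile, a fold change is given as a lower bound.

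As deposited, colony arrays were brighter than sorted ones, with median intensities of 541.0 to 606.5 on the 4 colony arrays and of 393.4 to 406.5 on the 2 sorted arrays. Precision is limited by the small number of arrays. Marker lists of the cell types that such preparations can hold differed between the groups. Each sum adds the linear intensities of a list, so its brightest probes weigh most, as Dcn does among the fibroblast markers. Fibroblast and mesenchyme markers, 9 of 10 on the array, summed to log2 levels of 18.95 to 18.99 in GSC colonies, 17.96 to 18.02 in PGC colonies and 14.43 to 14.61 in sorted cells. Sertoli markers, 10 of 10 on the array, summed to 18.07 to 18.10 in GSC colonies, 17.71 to 17.84 in PGC colonies and 19.40 to 19.53 in sorted cells, with Amh under the 30th percentile on both GSC colony arrays and Kitl on both sorted arrays. Macrophage and leukocyte markers, 9 of 10, summed to 11.43 to 11.55 in GSC colonies, 13.09 to 13.29 in PGC colonies and 16.91 to 16.92 in sorted cells, and Adgre1, C1qb, Pf4 and Tyrobp lay under the 30th percentile on both GSC colony arrays. Endothelial markers, 8 of 8, summed to 14.18 to 14.19 in GSC colonies, 12.97 to 13.05 in PGC colonies and 15.60 to 15.68 in sorted cells. Peritubular myoid and smooth muscle markers, 5 of 5, summed to 16.21 to 16.22 in GSC colonies, 15.17 to 15.24 in PGC colonies and 12.37 to 12.40 in sorted cells. Leydig markers, 4 of 6, summed to 14.24 to 14.29 in GSC colonies, 14.00 to 14.05 in PGC colonies and 15.76 to 15.85 in sorted cells, and erythroid markers, 3 of 5, to 9.42 to 9.50 in GSC colonies, 10.55 to 10.81 in PGC colonies and 11.83 to 11.85 in sorted cells. Germ cell markers, 10 of 10, summed to 12.79 to 12.92 in GSC colonies, 12.10 to 12.26 in PGC colonies and 11.92 to 12.13 in sorted cells. Of these, Dppa3, Sall4 and Stk31 stayed under the 30th percentile on every one of the 6 arrays, as did Col1a1 of the fibroblast list, Cnn1 of the myoid list and Slc4a1 of the erythroid list. Dazl did so on both PGC colony arrays, and Zbtb16 on both PGC colony and both sorted arrays. The groups are called by their labels here. The part that these cell types had in the results below was not tested, and in bulk RNA fewer cells of a type and less RNA per cell cannot be told apart.

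**Figure D1:**
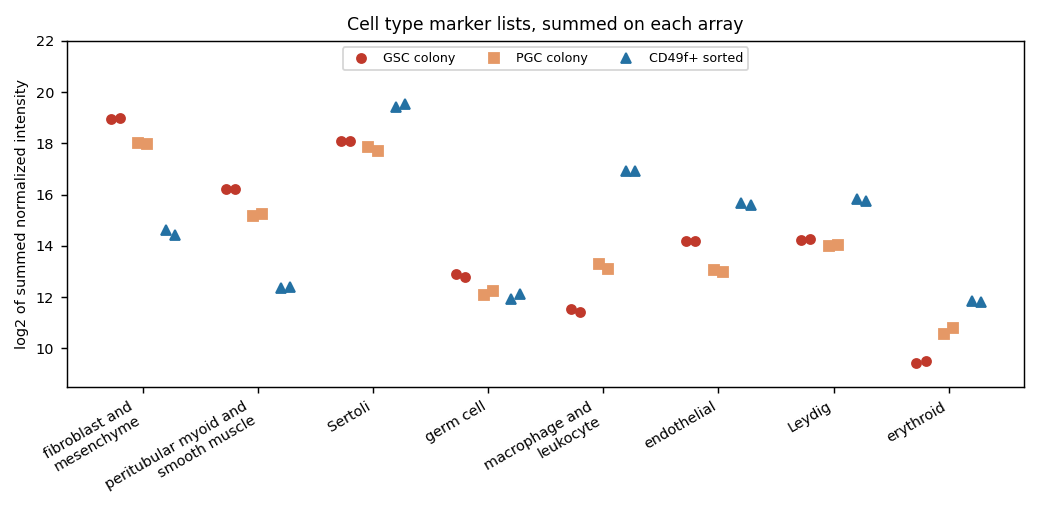
Summed normalized intensity of 8 cell type marker lists on each array (y axis, log2), with GSC colony, PGC colony and CD49f+ sorted arrays from left to right and 1 point per array. Fibroblast and myoid sums were highest on the GSC colony arrays, and leukocyte, endothelial, Sertoli and Leydig sums were highest on the sorted arrays. The brightest probes of a list weigh most in its sum.

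GSC colonies were set against CD49f+ sorted cells to compare colonies from total testicular cells with uncultured sorted cells of mice of the same age. Of the 51 genes, 21 were higher and 11 lower in GSC colonies (limma adjusted p under 0.05), or 62.7%, against 47.1% of all genes tested. Higher calls made up 41.2% of the 51 genes and 22.5% of all genes, and lower calls 21.6% and 24.5%. The median difference was 0.11 over the 51 genes and -0.01 over all genes, and the median absolute difference 0.82 and 0.42. PGC colonies were set against the same sorted arrays, and 23 genes were higher and 9 lower, or 62.7%, against 46% of all genes. GSC colonies were set against PGC colonies to ask how colonies of the postnatal testis and the embryonic gonad differ under 1 culture regime. Here 9 of 51 genes were higher and 7 lower in GSC colonies, or 31.4%, against 15.1% of all genes. Because the gene list was drawn up with earlier results of these data known, these shares describe the list and are no test of it. Higher calls made up 22.8% of all genes and lower calls 23.2% in PGC colonies against sorted cells, and 7.98% and 7.08% in GSC against PGC colonies. Without normalization between arrays the median of all genes shifted by 0.465 for GSC colonies and 0.423 for PGC colonies over sorted cells, and the calls over sorted cells became 32 higher and 7 lower in GSC colonies, and 33 higher and 7 lower in PGC colonies. The share of all genes called in that setting was also higher, at 64.1% and 60.9%. The arrays of the groups did not overlap for 42 of 51 genes in GSC colonies against sorted cells, 40 in PGC colonies against sorted cells and 33 in GSC against PGC colonies, while 75.6%, 71.1% and 56.7% of all genes did not overlap. With 2 arrays a group, a lack of overlap is thus common. The 3 comparisons share arrays, so their values stand side by side below. Culture and selection by CD49f differ together between the colonies and the sorted cells and cannot be told apart. For PGC colonies, stage and tissue differ from the sorted cells as well, embryonic gonad against postnatal testis, and cannot be told apart from these either. There, a rise or fall over sorted cells means only a higher or lower level.

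**Figure D2:**
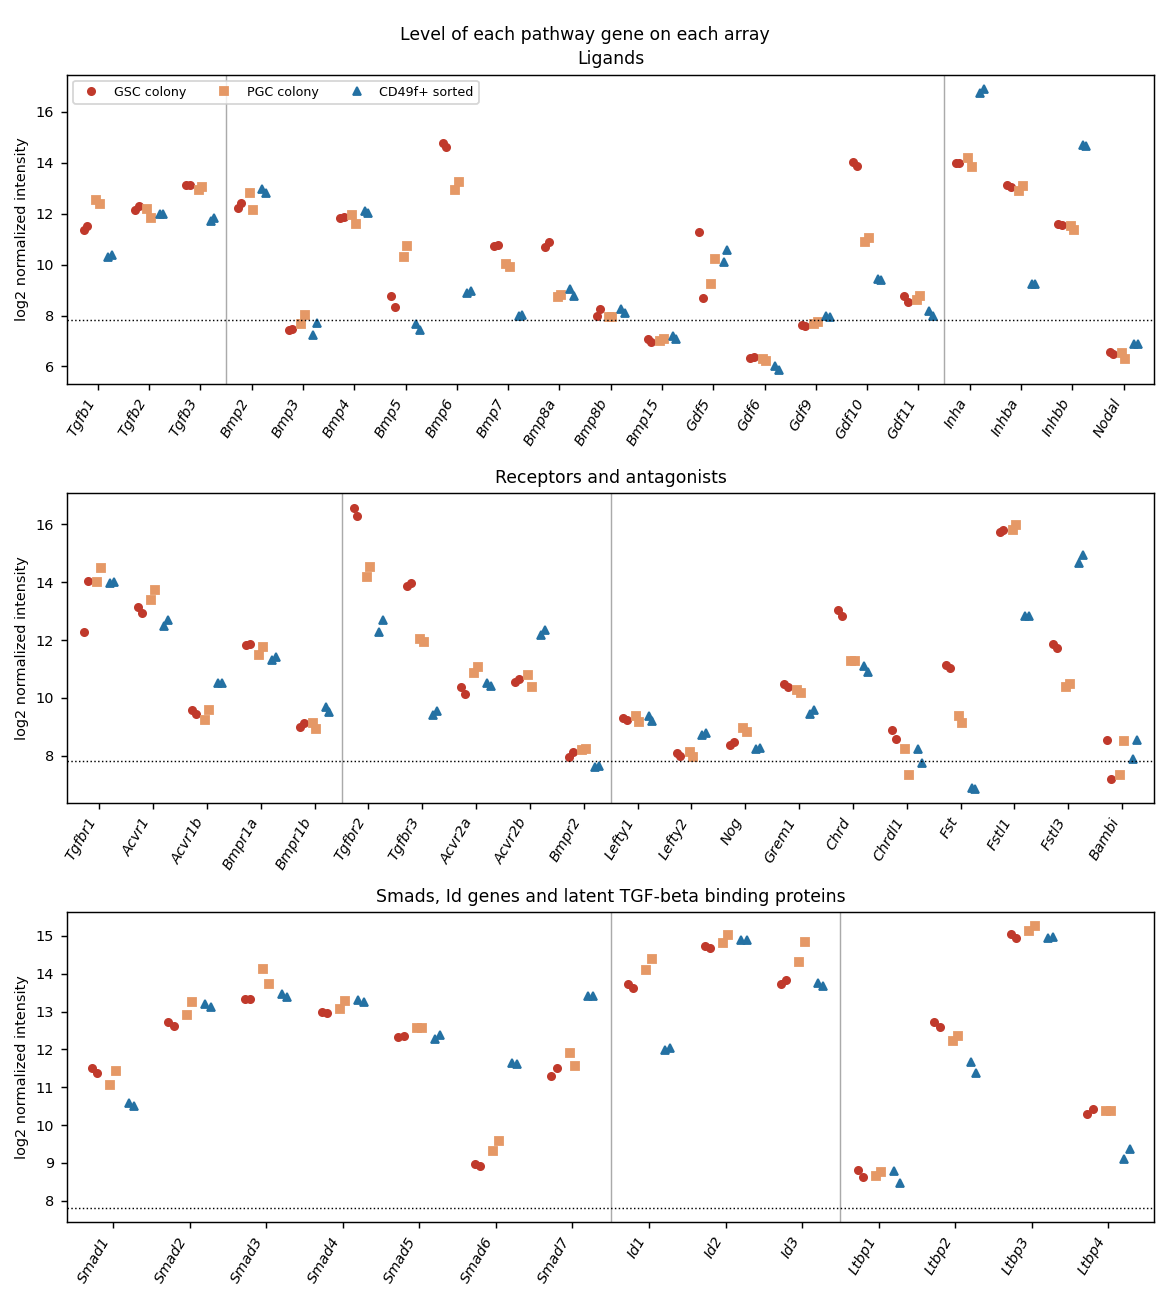
Normalized log2 intensity (y axis) of all 55 pathway genes on each array, in order of role, with GSC colony, PGC colony and CD49f+ sorted arrays from left to right for each gene. Points are single arrays, vertical lines part the roles, and the dotted line is the 30th percentile at 7.82; levels of different genes come from different probes and cannot be compared. Inha, Inhbb and Fstl3 stood highest on the sorted arrays, and Bmp6, Gdf10, Tgfbr3 and Fst on the GSC colony arrays.

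**Figure D3:**
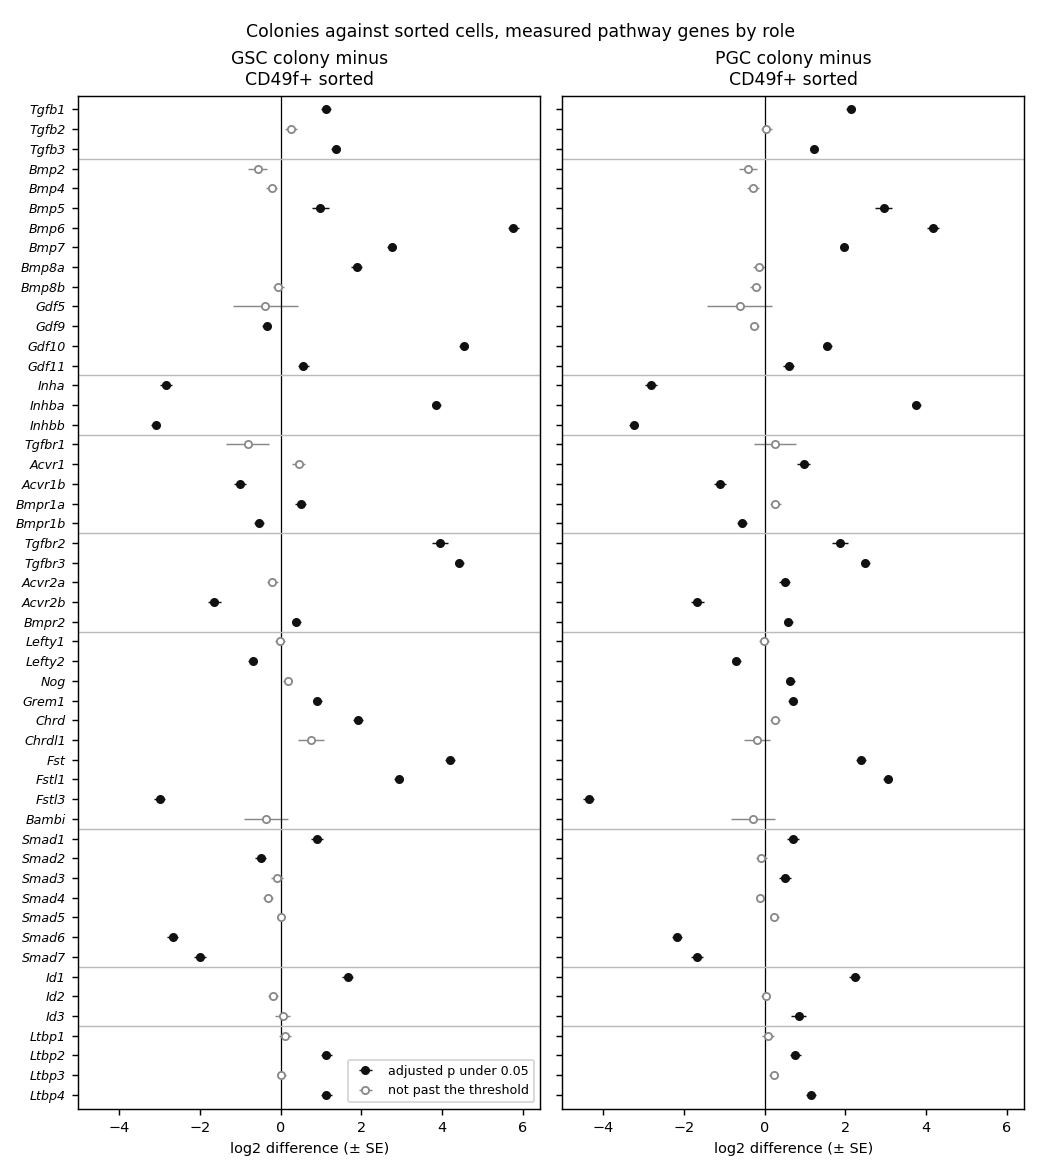
Difference in log2 level (x axis, ± SE) of the 51 measured genes, GSC colonies minus sorted cells on the left and PGC colonies minus sorted cells on the right, with n = 2 arrays per group. Filled points passed an adjusted p of 0.05 and open points did not; both panels use the same sorted arrays. Positive values mean higher in colonies, as for Bmp6, Inhba and Tgfbr3, and negative values lower, as for Inhbb, Fstl3 and Smad6.

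Among the TGF-beta ligands, Tgfb1 and Tgfb3 were higher in both kinds of colony than in sorted cells. Tgfb1, the ligand for which the family is named, had log2 levels of 11.38 and 11.53 in GSC colonies, 12.53 and 12.40 in PGC colonies and 10.29 and 10.37 in sorted cells. It rose by 1.12 ± 0.12 in GSC colonies and by 2.14 ± 0.12 in PGC colonies over sorted cells (limma adjusted p = 0.00041 and 3.2e-05), and GSC colonies fell by 1.01 ± 0.12 relative to PGC colonies (adjusted p = 0.0027). No array of 1 group overlapped another group. Tgfb3, a TGF-beta of mesenchyme and palate, had log2 levels of 13.14 and 13.13 in GSC colonies, 12.94 and 13.04 in PGC colonies and 11.73 and 11.81 in sorted cells. It rose by 1.37 ± 0.11 and 1.22 ± 0.11 over sorted cells in GSC and PGC colonies (limma adjusted p = 0.00011 and 0.00019), while the difference of 0.14 ± 0.11 between the colonies missed the threshold (adjusted p = 0.42). Both sorted arrays lay below all 4 colony arrays for either gene.

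Tgfb2, the remaining TGF-beta ligand, was on 2 probes that gave different answers. The probe with the higher mean, which stands for the gene, had log2 levels of 12.16 and 12.31 in GSC colonies, 12.19 and 11.85 in PGC colonies and 11.97 and 11.97 in sorted cells. On this probe GSC colonies and sorted cells differed by 0.26 ± 0.14 and PGC colonies and sorted cells by 0.05 ± 0.14 (limma adjusted p = 0.19 and 0.83). The other Tgfb2 probe had log2 levels of 12.21 and 12.33 in GSC colonies, 12.30 and 11.63 in PGC colonies and 9.31 and 9.11 in sorted cells. On it the difference over sorted cells was 3.06 in GSC colonies and 2.75 in PGC colonies (limma adjusted p = 9.1e-05 and 0.00015 in a fit of every probe). Both sorted arrays lay below all 4 colony arrays on the other probe, but not on the one that stands for the gene, so no direction is given for Tgfb2. Of the other genes with 2 probes, Fstl3 fell on both, and the remaining ones are given with their roles.

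**Figure D4:**
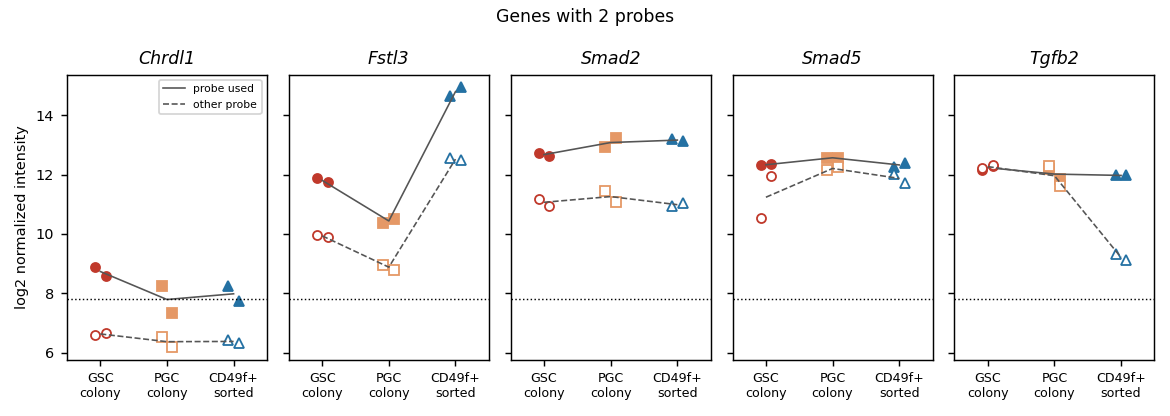
Normalized log2 intensity (y axis) of the 5 genes with 2 probes, in GSC colonies, PGC colonies and CD49f+ sorted cells. Filled symbols and solid lines are the probe that stands for the gene, open symbols and dashed lines the other, symbols are single arrays and lines join group means; the dotted line is the 30th percentile. The other probe of Tgfb2 is lower in sorted cells than in colonies while the first stays nearly level, and both probes of Fstl3 are highest in sorted cells.

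BMP and GDF ligands included the largest rise among the 51 genes over sorted cells. Of 11 measured BMP and GDF genes, 6 were higher and 1 lower in GSC colonies, and 5 were higher and 0 lower in PGC colonies than in sorted cells. That was 63.6% in GSC colonies, against 47.1% of all genes, and 45.5% in PGC colonies, near the 46% of all genes. Bmp6, a BMP also known from liver, where it sets hepcidin, had log2 levels of 14.78 and 14.60 in GSC colonies, 12.92 and 13.25 in PGC colonies and 8.88 and 8.95 in sorted cells. It rose by 5.78 ± 0.15 in GSC colonies and by 4.18 ± 0.15 in PGC colonies over sorted cells (limma adjusted p = 2.3e-06 and 6.7e-06). GSC colonies exceeded PGC colonies by 1.60 ± 0.15 (adjusted p = 0.0011). Gdf10, also called Bmp3b, had log2 levels of 14.04 and 13.86 in GSC colonies, 10.91 and 11.03 in PGC colonies and 9.43 and 9.39 in sorted cells. It rose by 4.54 ± 0.12 and 1.56 ± 0.12 over sorted cells in GSC and PGC colonies (limma adjusted p = 2.3e-06 and 0.00011), and by 2.98 ± 0.12 in GSC colonies over PGC colonies (adjusted p = 5.2e-05), the largest difference of the 51 genes between the colonies. All 3 groups stood apart for both genes, with sorted cells lowest.

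RefSeq promoters (GRCm38.p6) were matched by symbol for 37 of the 55 genes. Those of these 2 strongly raised ligand genes are shown, from 250 bases before to 50 after the transcription start, 5′ to 3′. That of Bmp6 lies at chr13:38345466-38345765 on the plus strand and that of Gdf10 at chr14:33923337-33923636 on the plus strand. Capitals mark matches, on either strand, to the Smad motif CAGAC and to the GC-rich BMP-response motifs GGCGCC and GCCGNCGC, and no 2 matches overlap in these sequences.
Bmp6: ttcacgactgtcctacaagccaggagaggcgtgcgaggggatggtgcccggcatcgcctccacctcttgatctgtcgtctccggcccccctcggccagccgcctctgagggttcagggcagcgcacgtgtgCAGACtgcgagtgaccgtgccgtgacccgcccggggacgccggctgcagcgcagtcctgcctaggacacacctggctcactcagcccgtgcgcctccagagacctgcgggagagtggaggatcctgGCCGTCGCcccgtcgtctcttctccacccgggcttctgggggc
Gdf10: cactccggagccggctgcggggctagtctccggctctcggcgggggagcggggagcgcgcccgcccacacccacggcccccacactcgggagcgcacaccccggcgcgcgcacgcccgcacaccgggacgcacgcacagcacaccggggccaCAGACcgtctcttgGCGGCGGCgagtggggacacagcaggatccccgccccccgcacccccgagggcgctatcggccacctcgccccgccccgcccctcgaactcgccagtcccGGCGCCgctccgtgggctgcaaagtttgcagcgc
CAGAC was found in 49.6% of the 32851 promoters of this table, GGCGCC in 11.9% and GCCGNCGC in 9.76%. Bmp6 held CAGAC at base 132 and GCCGNCGC at base 258, counted from the 5′ end. Gdf10 held all 3 motifs, at bases 153, 267 and 167 in that order, where GCCGNCGC is matched on the opposite strand. A match describes the letters only and is no evidence of binding.

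Bmp5 and Bmp7, which belong to the same BMP subgroup as Bmp6, were also higher in colonies, but in opposite order between the colonies. Bmp7, a BMP of kidney and gonad development, had log2 levels of 10.73 and 10.79 in GSC colonies, 10.02 and 9.93 in PGC colonies and 7.98 and 8.02 in sorted cells. It rose by 2.75 ± 0.11 and 1.97 ± 0.11 over sorted cells in GSC and PGC colonies (limma adjusted p = 6.7e-06 and 2.9e-05), and by 0.78 ± 0.11 in GSC over PGC colonies (adjusted p = 0.005). Bmp5, a BMP of skeletal development, had log2 levels of 8.76 and 8.32 in GSC colonies, 10.30 and 10.71 in PGC colonies and 7.68 and 7.43 in sorted cells. Both sorted arrays lay under the 30th percentile, so Bmp5 was raised at least 1.65-fold in GSC colonies and at least 6.44-fold in PGC colonies (limma adjusted p = 0.0091 and 8.6e-05). The call in GSC colonies was lost without sorted replicate 2 (adjusted p = 0.056). GSC colonies fell by 1.97 ± 0.21 relative to PGC colonies (limma adjusted p = 0.002), with no overlap between the groups.

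Bmp8a, a BMP known from mouse spermatogenesis, had log2 levels of 10.69 and 10.90 in GSC colonies, 8.72 and 8.82 in PGC colonies and 9.05 and 8.77 in sorted cells. Its levels were high on the GSC colony arrays alone. It rose by 1.89 ± 0.14 in GSC colonies over sorted cells and by 2.03 ± 0.14 over PGC colonies (limma adjusted p = 0.00011 and 0.00041), while PGC colonies and sorted cells differed by -0.14 ± 0.14 (adjusted p = 0.48). Bmp8b, its close paralogue with roles in primordial germ cell formation, differed by -0.05 ± 0.14, -0.22 ± 0.14 and 0.17 ± 0.14 in the 3 comparisons and passed in none (limma adjusted p = 0.78, 0.24 and 0.47). A probe that reads both paralogues cannot be told from a specific one here, since the array's probe sequences were not used.

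Bmp4, the BMP that induces primordial germ cells in the mouse embryo, differed by -0.22 ± 0.14 in GSC colonies and -0.29 ± 0.14 in PGC colonies from sorted cells and did not pass (limma adjusted p = 0.25 and 0.15). Its log2 levels lay between 11.60 and 12.09 on the 6 arrays. Bmp2, its closest relative, differed by -0.57 ± 0.23 and -0.41 ± 0.23 (limma adjusted p = 0.089 and 0.2). Neither differed beyond its spread between GSC and PGC colonies, at 0.07 ± 0.14 for Bmp4 and -0.15 ± 0.23 for Bmp2. Gdf11, a patterning ligand related to myostatin, rose by 0.57 ± 0.14 and 0.60 ± 0.14 over sorted cells in GSC and PGC colonies (limma adjusted p = 0.017 and 0.014). Both Gdf11 calls were lost without sorted replicate 2, and each with 1 colony array left out, GSC colony replicate 1 or PGC colony replicate 2 (adjusted p up to 0.11). The oocyte factor Gdf9, under the 30th percentile on all 4 colony arrays, was at least 1.10-fold lower in GSC colonies than in sorted cells (adjusted p = 0.032). That Gdf9 call was lost when either GSC colony array was left out (adjusted p = 0.14 and 0.17). The joint-forming ligand gene Gdf5 was set apart by its spread, with log2 levels of 11.27 and 8.68 in GSC colonies, 9.22 and 10.24 in PGC colonies and 10.12 and 10.58 in sorted cells. With GSC colony replicate 1 left out its difference over sorted cells was -1.67, and with replicate 2 left out 0.92, so 1 array decides its sign, and with all arrays it did not pass (adjusted p = 0.74).

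The 3 measured activin and inhibin subunit genes changed strongly and in opposite directions over sorted cells. Inhba encodes the beta A subunit, whose dimer is activin A, Inhbb the beta B subunit and Inha the alpha subunit, which turns a beta subunit into inhibin. Inhba had log2 levels of 13.13 and 13.06 in GSC colonies, 12.90 and 13.10 in PGC colonies and 9.23 and 9.24 in sorted cells. It rose by 3.86 ± 0.12 in GSC colonies and by 3.77 ± 0.12 in PGC colonies (limma adjusted p = 3.4e-06 and 5.4e-06). Inhbb had log2 levels of 11.61 and 11.56 in GSC colonies, 11.52 and 11.36 in PGC colonies and 14.71 and 14.66 in sorted cells. It fell by 3.10 ± 0.11 in GSC colonies and fell by 3.25 ± 0.11 in PGC colonies relative to sorted cells (limma adjusted p = 5.6e-06 and 6.4e-06). Inha had log2 levels of 14.00 and 13.99 in GSC colonies, 14.20 and 13.85 in PGC colonies and 16.74 and 16.92 in sorted cells. It fell by 2.83 ± 0.15 in GSC colonies and fell by 2.80 ± 0.15 in PGC colonies (limma adjusted p = 2.4e-05 and 2.8e-05). For each of the 3 genes the sorted arrays lay on one side of all 4 colony arrays. Between GSC and PGC colonies the differences were 0.10 ± 0.12 for Inhba, 0.15 ± 0.11 for Inhbb and -0.02 ± 0.15 for Inha, and none passed (limma adjusted p = 0.64, 0.43 and 0.93). Sertoli markers moved with Inha and Inhbb: of 10 measured, 8 were lower and 1 higher in GSC colonies, and 9 lower and 1 higher in PGC colonies, than in sorted cells. All 9 measured leukocyte markers and most endothelial markers were also lower in each kind of colony. The part of these cell types in the result was not tested.

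The promoters of the 3 subunit genes are shown because these genes parted in direction, in the same frame of 250 bases before to 50 after the start and with the same motifs in capitals. Inhba lies at chr13:16011601-16011900 on the plus strand, Inhbb at chr1:119422199-119422498 on the minus strand and Inha at chr1:75507359-75507658 on the plus strand (RefSeq, GRCm38.p6), each given in the direction of its gene.
Inhba: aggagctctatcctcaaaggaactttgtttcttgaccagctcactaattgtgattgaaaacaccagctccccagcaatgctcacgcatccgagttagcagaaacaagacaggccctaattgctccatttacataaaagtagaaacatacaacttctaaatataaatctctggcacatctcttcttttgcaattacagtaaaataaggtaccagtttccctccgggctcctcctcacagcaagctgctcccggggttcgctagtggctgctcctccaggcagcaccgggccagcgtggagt
Inhbb: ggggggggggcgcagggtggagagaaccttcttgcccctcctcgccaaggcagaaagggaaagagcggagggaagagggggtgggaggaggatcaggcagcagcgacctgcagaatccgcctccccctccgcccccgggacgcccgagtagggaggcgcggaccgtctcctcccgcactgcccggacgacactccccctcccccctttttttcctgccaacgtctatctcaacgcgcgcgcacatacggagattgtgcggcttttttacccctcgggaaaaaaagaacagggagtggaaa
Inha: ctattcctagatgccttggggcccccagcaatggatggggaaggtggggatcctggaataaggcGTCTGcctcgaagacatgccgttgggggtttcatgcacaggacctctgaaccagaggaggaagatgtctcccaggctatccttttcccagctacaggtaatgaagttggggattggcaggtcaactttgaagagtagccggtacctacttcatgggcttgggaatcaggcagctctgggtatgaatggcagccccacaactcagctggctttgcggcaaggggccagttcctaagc
None of the 3 motifs was found in the Inhba or the Inhbb promoter, and Inha held CAGAC on the opposite strand at base 65. The share of G and C was 47.7% for Inhba, 64.3% for Inhbb and 55.3% for Inha.

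Of the receptors, the TGF-beta receptors Tgfbr2 and Tgfbr3 rose most over sorted cells. Tgfbr2, the type II kinase that binds TGF-beta, had log2 levels of 16.58 and 16.30 in GSC colonies, 14.17 and 14.52 in PGC colonies and 12.28 and 12.69 in sorted cells. It rose by 3.96 ± 0.20 in GSC colonies and by 1.86 ± 0.20 in PGC colonies over sorted cells, and by 2.10 ± 0.20 in GSC over PGC colonies (limma adjusted p = 2.0e-05, 0.00048 and 0.0013). Tgfbr3, betaglycan, the type III co-receptor that presents TGF-beta and also binds inhibin, had log2 levels of 13.87 and 13.97 in GSC colonies, 12.03 and 11.94 in PGC colonies and 9.41 and 9.56 in sorted cells. It rose by 4.43 ± 0.11 and 2.5 ± 0.11 over sorted cells in GSC and PGC colonies, and by 1.94 ± 0.11 in GSC over PGC colonies (limma adjusted p = 2.3e-06, 1.6e-05 and 0.00021). The arrays of the 3 groups did not overlap for either gene, and GSC colonies were highest. Fibroblast and mesenchyme markers moved in the same direction: all 8 measured were higher over sorted cells in each kind of colony, and between the colonies 6 were higher and 1 lower in GSC colonies. Most peritubular myoid and smooth muscle markers moved in this direction as well. The part of these cell types in the receptor result was not tested.

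The activin type II receptors did not move together. Acvr2b had log2 levels of 10.56 and 10.67 in GSC colonies, 10.80 and 10.38 in PGC colonies and 12.18 and 12.34 in sorted cells. It fell by 1.65 ± 0.16 in GSC colonies and fell by 1.67 ± 0.16 in PGC colonies relative to sorted cells (limma adjusted p = 0.00034 and 0.00033), and the colonies differed by 0.02 ± 0.16 (adjusted p = 0.94). Acvr2a had log2 levels of 10.37 and 10.14 in GSC colonies, 10.85 and 11.08 in PGC colonies and 10.51 and 10.42 in sorted cells. It was higher by 0.50 ± 0.14 in PGC colonies than in sorted cells and lower by 0.71 ± 0.14 in GSC than in PGC colonies (limma adjusted p = 0.025 and 0.019), and GSC colonies differed from sorted cells by -0.21 ± 0.14 (adjusted p = 0.26). Both Acvr2a calls were lost without PGC colony replicate 2 (adjusted p = 0.092 and 0.078), that over sorted cells without either sorted array (adjusted p = 0.076 and 0.13), and that between the colonies without GSC colony replicate 2 (adjusted p = 0.07). Bmpr2, the BMP type II receptor mutated in human pulmonary hypertension, had log2 levels of 7.94 and 8.12 in GSC colonies, 8.20 and 8.25 in PGC colonies and 7.62 and 7.65 in sorted cells. With both sorted arrays under the 30th percentile, Bmpr2 was higher by at least 1.16-fold in GSC colonies and by at least 1.32-fold in PGC colonies (limma adjusted p = 0.028 and 0.0058). The Bmpr2 call in GSC colonies was lost when any 1 GSC colony or sorted array was left out (adjusted p up to 0.2).

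Type I receptors changed less, by at most 1.11 in any comparison, and Tgfbr1 passed in none. Acvr1b, the activin type I receptor ALK4, had log2 levels of 9.60 and 9.43 in GSC colonies, 9.22 and 9.60 in PGC colonies and 10.53 and 10.50 in sorted cells. It fell by 1.00 ± 0.15 in GSC colonies and fell by 1.11 ± 0.15 in PGC colonies relative to sorted cells (limma adjusted p = 0.0022 and 0.0015). Acvr1, the BMP type I receptor ALK2, had log2 levels of 13.13 and 12.93 in GSC colonies, 13.37 and 13.73 in PGC colonies and 12.48 and 12.69 in sorted cells. It rose by 0.97 ± 0.16 in PGC colonies over sorted cells (limma adjusted p = 0.0036), while the difference of 0.45 ± 0.16 in GSC colonies did not pass (adjusted p = 0.066). Colony and sorted arrays did not overlap for either gene. The BMP type I receptors Bmpr1a and Bmpr1b moved by 0.50 ± 0.13 and -0.53 ± 0.13 in GSC colonies over sorted cells (limma adjusted p = 0.022 and 0.014). In PGC colonies the differences were 0.27 ± 0.13 and -0.56 ± 0.13 (adjusted p = 0.15 and 0.012). Bmpr1a had log2 levels of 11.85 and 11.85 in GSC colonies, 11.48 and 11.76 in PGC colonies and 11.30 and 11.41 in sorted cells. Bmpr1b had log2 levels of 9.0 and 9.12 in GSC colonies, 9.13 and 8.94 in PGC colonies and 9.68 and 9.52 in sorted cells. Both calls in GSC colonies were lost without GSC colony replicate 1 (adjusted p = 0.07 for Bmpr1a and 0.073 for Bmpr1b) and without sorted replicate 1, and that of Bmpr1a also without GSC colony or sorted replicate 2. The Bmpr1b call in PGC colonies was lost without sorted replicate 1 (adjusted p = 0.081).

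Tgfbr1, the type I partner of Tgfbr2, had log2 levels of 12.29 and 14.06 in GSC colonies, 14.00 and 14.50 in PGC colonies and 13.99 and 13.99 in sorted cells. GSC colony replicate 1 stood below the 5 other arrays. The difference from sorted cells was -0.82 ± 0.53 in GSC colonies (limma adjusted p = 0.26), but 0.06 without GSC colony replicate 1 and -1.70 without replicate 2 (adjusted p = 0.85 and 0.00022). Between GSC and PGC colonies the difference was -1.08 ± 0.53 (adjusted p = 0.24), and -1.96 without GSC colony replicate 2 (adjusted p = 0.00029). A single array thus decides whether Tgfbr1 is lower in GSC colonies, and no direction is given.

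Among the antagonists, the activin-binding proteins follistatin and follistatin-like 3 changed in opposite directions over sorted cells. Fst, follistatin, which traps activin with high affinity, had log2 levels of 11.13 and 11.05 in GSC colonies, 9.39 and 9.15 in PGC colonies and 6.89 and 6.87 in sorted cells. Both sorted arrays lay under the 30th percentile, so Fst was raised at least 9.62-fold in GSC colonies and at least 2.73-fold in PGC colonies (limma adjusted p = 3.2e-06 and 2.5e-05). GSC colonies exceeded PGC colonies by 1.81 ± 0.12 (adjusted p = 0.00034). Fstl3, a secreted activin antagonist related to follistatin, had log2 levels of 11.87 and 11.74 in GSC colonies, 10.38 and 10.50 in PGC colonies and 14.66 and 14.94 in sorted cells. It fell by 2.99 ± 0.14 in GSC colonies and fell by 4.36 ± 0.14 in PGC colonies relative to sorted cells, and GSC colonies exceeded PGC colonies by 1.37 ± 0.14 (limma adjusted p = 1.3e-05, 5.5e-06 and 0.0015). The other Fstl3 probe differed by -2.59, -3.64 and 1.05 in the same 3 comparisons. Sorted cells were therefore lowest for Fst and highest for Fstl3, and the 3 groups did not overlap for either. Fstl1, a follistatin-like glycoprotein of mesenchyme that also binds BMPs, had log2 levels of 15.73 and 15.81 in GSC colonies, 15.81 and 15.97 in PGC colonies and 12.85 and 12.82 in sorted cells. It rose by 2.93 ± 0.11 and 3.05 ± 0.11 over sorted cells in GSC and PGC colonies (limma adjusted p = 6.8e-06 and 7.8e-06), and the colonies differed by -0.12 ± 0.11 (adjusted p = 0.53). Sertoli markers fell with Fstl3 and fibroblast markers rose with Fst and Fstl1 over sorted cells, by the counts given above for Inha and Tgfbr2. Leukocyte, endothelial and erythroid markers mostly fell too, and myoid markers mostly rose. Between the colonies 2 Sertoli markers were higher and 1 lower in GSC colonies, and 6 fibroblast markers higher and 1 lower. Fstl3 was higher there and Fstl1 did not pass. The part of these cell types in the antagonist results was not tested.

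BMP antagonists differed less and not all alike. Chrd, chordin, which binds BMPs in the extracellular space, had log2 levels of 13.04 and 12.84 in GSC colonies, 11.29 and 11.26 in PGC colonies and 11.12 and 10.91 in sorted cells. It rose by 1.93 ± 0.13 in GSC colonies over sorted cells and by 1.66 ± 0.13 over PGC colonies (limma adjusted p = 6.4e-05 and 0.00061), while PGC colonies and sorted cells differed by 0.26 ± 0.13 (adjusted p = 0.15). Its levels were thus high on the GSC colony arrays alone, as for Bmp8a. Grem1, gremlin, a BMP antagonist of limb and gut mesenchyme, had log2 levels of 10.49 and 10.37 in GSC colonies, 10.28 and 10.16 in PGC colonies and 9.46 and 9.58 in sorted cells. It rose by 0.91 ± 0.12 and 0.70 ± 0.12 over sorted cells in GSC and PGC colonies (limma adjusted p = 0.001 and 0.0033), and the colonies did not differ beyond their spread (adjusted p = 0.29). Noggin, encoded by Nog, rose by 0.64 ± 0.11 in PGC colonies over sorted cells (limma adjusted p = 0.0045). It was lower by 0.46 ± 0.11 in GSC than in PGC colonies (adjusted p = 0.044), a call lost when any 1 of the 6 arrays was left out (adjusted p up to 0.24). The Nodal antagonist Lefty2 fell by 0.69 ± 0.12 in GSC colonies and fell by 0.70 ± 0.12 in PGC colonies relative to sorted cells (limma adjusted p = 0.0032 and 0.0032), calls lost without normalization between arrays. Lefty1 differed by -0.01 ± 0.13 and -0.02 ± 0.13 (adjusted p = 0.95 and 0.94), and Chrdl1 and the pseudoreceptor gene Bambi passed in no comparison. No array reached the 30th percentile on the other Chrdl1 probe. Bambi had log2 levels of 8.54 and 7.20 in GSC colonies, 7.35 and 8.51 in PGC colonies and 7.88 and 8.56 in sorted cells, so that its arrays differed as much within as between the groups.

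The inhibitory Smads were lower in both kinds of colony, whereas the signal-carrying Smads changed by less. Smad6, which blocks mainly BMP receptors, had log2 levels of 8.98 and 8.91 in GSC colonies, 9.31 and 9.58 in PGC colonies and 11.64 and 11.60 in sorted cells. It fell by 2.68 ± 0.13 in GSC colonies and fell by 2.18 ± 0.13 in PGC colonies relative to sorted cells (limma adjusted p = 1.6e-05 and 3.9e-05). Smad7, which blocks both TGF-beta and BMP receptors, had log2 levels of 11.31 and 11.504 in GSC colonies, 11.92 and 11.55 in PGC colonies and 13.40 and 13.41 in sorted cells. It fell by 2.00 ± 0.15 in GSC colonies and fell by 1.67 ± 0.15 in PGC colonies (limma adjusted p = 0.00011 and 0.00025). Both sorted arrays lay above all 4 colony arrays for either gene. GSC colonies were lower than PGC colonies by 0.50 ± 0.13 for Smad6 (adjusted p = 0.0496), a call lost without either GSC colony array, without PGC colony replicate 2 and without either sorted array, and Smad7 did not pass (adjusted p = 0.22). Of 8 endothelial markers, 7 were lower and 1 higher in GSC colonies than in sorted cells, and 8 lower in PGC colonies. All 9 leukocyte markers were lower in each kind of colony. Of 10 Sertoli markers, 8 were lower in GSC colonies and 9 in PGC colonies, with 1 higher in each. Between the colonies, 2 endothelial markers were higher and 1 lower in GSC colonies, while Smad6 was lower. The part of these cell types was not tested. Smad1, a BMP-activated Smad, had log2 levels of 11.51 and 11.39 in GSC colonies, 11.07 and 11.44 in PGC colonies and 10.59 and 10.52 in sorted cells. It rose by 0.90 ± 0.15 and 0.70 ± 0.15 over sorted cells in GSC and PGC colonies (limma adjusted p = 0.0034 and 0.01), and the call in PGC colonies was lost without sorted replicate 2 (adjusted p = 0.06). Smad5, which acts beside it, differed by 0.01 ± 0.11 and 0.24 ± 0.11 (adjusted p = 0.97 and 0.11), and on its other probe GSC colony replicate 1 stood low at 10.54 against 11.94 on replicate 2.

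Smad2 and Smad3, the Smads of TGF-beta and activin, and Smad4, the common partner, differed by at most 0.58 in any comparison. Smad3 had log2 levels of 13.34 and 13.34 in GSC colonies, 14.11 and 13.72 in PGC colonies and 13.46 and 13.38 in sorted cells. It was higher by 0.50 ± 0.15 in PGC colonies than in sorted cells (limma adjusted p = 0.036), a call lost without PGC colony replicate 1 and without either sorted array. Smad2 had log2 levels of 12.72 and 12.63 in GSC colonies, 12.92 and 13.25 in PGC colonies and 13.20 and 13.12 in sorted cells. It was lower by 0.49 ± 0.14 in GSC colonies than in sorted cells (limma adjusted p = 0.029), but its other probe differed by 0.08 (adjusted p = 0.71), and the call was lost without any 1 GSC colony or sorted array. Without normalization between arrays the Smad2 difference was 0.12. Smad4 differed by -0.31 ± 0.12, -0.10 ± 0.12 and -0.21 ± 0.12 in the 3 comparisons and passed in none.

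Of the Id genes, the transcriptional inhibitors that respond to BMP, Id1 was higher in both kinds of colony and highest in PGC colonies. Id1 had log2 levels of 13.73 and 13.63 in GSC colonies, 14.10 and 14.40 in PGC colonies and 11.98 and 12.05 in sorted cells. It rose by 1.67 ± 0.13 in GSC colonies and by 2.24 ± 0.13 in PGC colonies over sorted cells (limma adjusted p = 0.00013 and 4.2e-05). Id3 had log2 levels of 13.72 and 13.84 in GSC colonies, 14.30 and 14.83 in PGC colonies and 13.77 and 13.68 in sorted cells. It rose by 0.84 ± 0.18 in PGC colonies over sorted cells (limma adjusted p = 0.01; 0.059 without sorted replicate 2), while GSC colonies and sorted cells differed by 0.06 ± 0.18 (adjusted p = 0.84). The Id3 levels of GSC colonies and sorted cells overlapped, and those of PGC colonies lay above both. GSC colonies were lower than PGC colonies by 0.57 ± 0.13 for Id1 and 0.79 ± 0.18 for Id3 (limma adjusted p = 0.037 and 0.037), calls lost without GSC colony replicate 1, PGC colony replicate 2 or either sorted array, and for Id1 also without GSC colony replicate 2. Id2 lay between 14.69 and 15.03 on the 6 arrays and passed in no comparison.

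Among the latent TGF-beta binding proteins, which store TGF-beta in the matrix, Ltbp2 and Ltbp4 were higher in colonies. Ltbp4, a partner of latent TGF-beta and of elastic fibres, had log2 levels of 10.30 and 10.44 in GSC colonies, 10.38 and 10.38 in PGC colonies and 9.10 and 9.37 in sorted cells. It rose by 1.13 ± 0.13 and 1.15 ± 0.13 over sorted cells in GSC and PGC colonies (limma adjusted p = 0.00067 and 0.00064). Ltbp2, a microfibril protein that does not itself bind latent TGF-beta, had log2 levels of 12.72 and 12.59 in GSC colonies, 12.23 and 12.35 in PGC colonies and 11.67 and 11.38 in sorted cells. It rose by 1.13 ± 0.14 and 0.76 ± 0.14 (limma adjusted p = 0.00084 and 0.0047). Colony and sorted arrays did not overlap for either gene. Ltbp1 and Ltbp3 passed in no comparison, with differences over sorted cells of 0.11 ± 0.15 and 0.02 ± 0.11 in GSC colonies and 0.09 ± 0.15 and 0.22 ± 0.11 in PGC colonies. None of the 4 passed between the colonies, where Ltbp2 differed by 0.37 ± 0.14 (limma adjusted p = 0.14).

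GSC and PGC colonies differed in fewer of these genes. Those higher in GSC colonies were the ligand genes Gdf10, Bmp8a, Bmp6 and Bmp7, the receptors Tgfbr2 and Tgfbr3, and the antagonists Fst, Chrd and Fstl3, by 0.78 to 2.98. Those lower in GSC colonies were Bmp5, Tgfb1, Id3, Acvr2a, Id1, Smad6 and Nog, by 0.46 to 1.97. The 9 higher genes passed in each of the alternatives that kept them, and 5 of the 7 lower ones, Bmp5 and Tgfb1 being the exceptions, were lost in at least 1. Leukocyte markers were lower in GSC than in PGC colonies, 8 of 9 with 0 higher, and Tgfb1 was lower too. In each kind of colony all 9 leukocyte markers were lower than in sorted cells, and Tgfb1 was higher. The part of leukocytes in the Tgfb1 result was not tested.

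**Figure D5:**
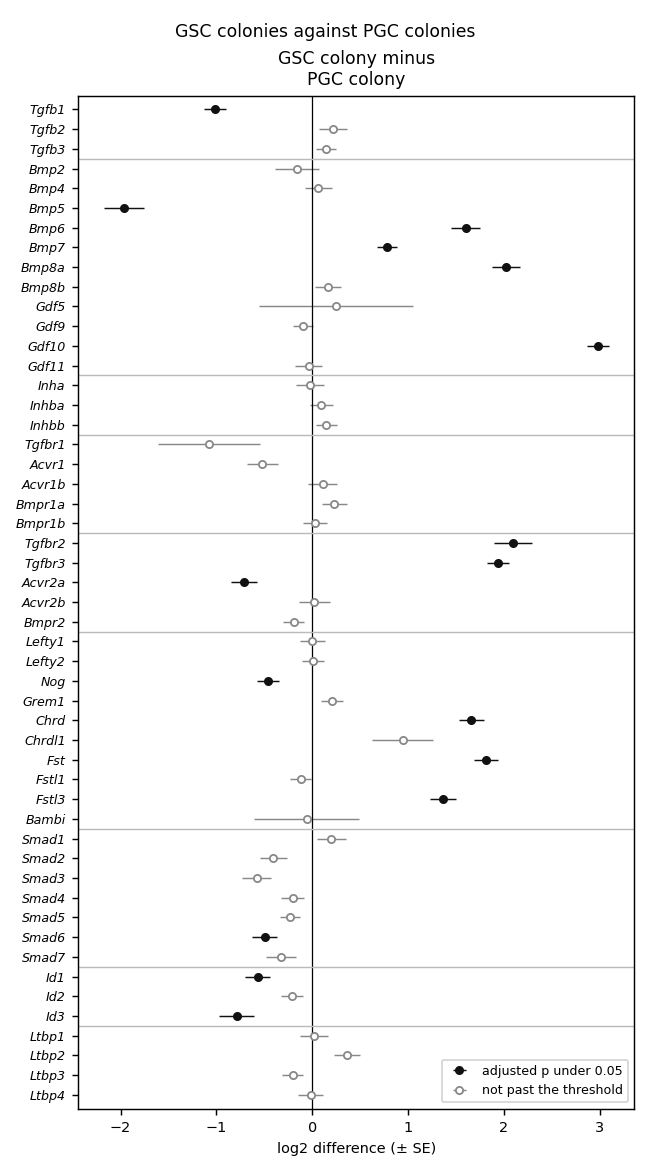
Difference in log2 level (x axis, ± SE) of the 51 measured genes, GSC colonies minus PGC colonies, n = 2 arrays per group, in order of role. Filled points passed an adjusted p of 0.05 and open points did not; Gdf10 and Tgfbr2 lay farthest to the right, and Bmp5 and Tgfb1 were lower in GSC colonies.

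Other genes of the same pathways, listed as 50 symbols, 43 of them present on the array and 36 passing the filter, moved both ways. In GSC colonies against sorted cells 10 of 36 were higher and 10 lower, in PGC colonies against sorted cells 12 and 13, and in GSC against PGC colonies 8 and 5 (limma adjusted p under 0.05). The shares called were 55.6%, 69.4% and 36.1% in that order, against 47.1%, 46% and 15.1% of all genes. This list too was drawn up with earlier results of these data known. Without PGC colony replicate 2 the calls between the colonies fell to 7, and those over all genes to 9.94%. Decorin, a TGF-beta-binding proteoglycan encoded by Dcn that is also among the fibroblast markers, rose by 3.91 ± 0.14 and 2.96 ± 0.14 over sorted cells in GSC and PGC colonies (limma adjusted p = 5.1e-06 and 1.6e-05). Both GSC colony arrays had a Dcn log2 level of 17.91, from deposited intensities of 317571 and 327383. Quantile normalization gives probes of equal rank the same level, so this lack of spread is no measure of how the arrays agree. Cdkn2b, the cell cycle inhibitor gene p15 and a TGF-beta target, had log2 levels of 11.89 and 12.85 in GSC colonies, 13.92 and 14.17 in PGC colonies and 8.66 and 8.48 in sorted cells. It rose by 3.8 ± 0.30 in GSC colonies and 5.48 ± 0.30 in PGC colonies over sorted cells, and GSC colonies were lower than PGC colonies by 1.68 ± 0.30 (limma adjusted p = 0.00013, 3.3e-05 and 0.015). The last call was lost without either PGC colony array (adjusted p = 0.065 and 0.1). Amh, the anti-Müllerian hormone of Sertoli cells, was at least 25.4-fold lower in GSC colonies and fell by 4.69 ± 0.26 in PGC colonies relative to sorted cells (limma adjusted p = 1.8e-05 and 3.5e-05). Atoh8, a BMP-responsive transcription factor gene, fell by 1.94 ± 0.12 in GSC colonies and by 1.58 ± 0.12 in PGC colonies relative to sorted cells (limma adjusted p = 5.2e-05 and 0.00013). Acvrl1, the type I receptor ALK1 of endothelium, had log2 levels of 14.05 and 13.61 in GSC colonies, 10.81 and 11.00 in PGC colonies and 15.25 and 15.39 in sorted cells. It fell by 1.49 ± 0.17 in GSC colonies and fell by 4.42 ± 0.17 in PGC colonies relative to sorted cells, and GSC colonies exceeded PGC colonies by 2.93 ± 0.17 (limma adjusted p = 0.00069, 9.7e-06 and 0.00022). The summed endothelial, Sertoli and Leydig markers all had this order of the groups. By gene, 2 of 8 endothelial markers were higher and 1 lower in GSC than in PGC colonies. The part of these cell types in the Acvrl1 result was not tested. Thbs1, thrombospondin, an activator of latent TGF-beta, was higher by 2.46 ± 0.11 in GSC than in PGC colonies (adjusted p = 7.3e-05). Over sorted cells Thbs1 rose by 3.29 ± 0.11 in GSC colonies and 0.83 ± 0.11 in PGC colonies (limma adjusted p = 4.1e-06 and 0.001). Id4, the Id gene of undifferentiated spermatogonia, was lower by 2.40 ± 0.15 in GSC than in PGC colonies (adjusted p = 0.00025). Against sorted cells Id4 was lower by 1.42 ± 0.15 in GSC colonies and higher by 0.98 ± 0.15 in PGC colonies (limma adjusted p = 0.00047 and 0.0025).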

How the data were processed

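RNA of 6 samples was labelled with Cy5 and hybridised to 1 array each, and groups and replicate numbers came from the sample titles. The authors deposited linear probe intensity values, some of them below 0 on 4 of 6 arrays. No source used here names the scanner, its software, the background method or any scaling. Per the labels' protocols, 1 µg of total RNA was amplified per array. From these intensities, normexp background correction (offset 50), log2 and quantile normalization were computed, since the arrays' distributions differed. Gene names came from the platform's annotation: 21876 probes had 1 symbol, 0 several and 4547 none. The probe with the highest mean stood for a gene. Values entered 1 limma fit (3.58.1, R 4.3.3; group means, two-sided, with 3 degrees of freedom left), checked on simulated data. In the simulation 15259 of 15459 genes were unchanged, whereas 47.1%, 46% and 15.1% were called in the data. It recovered 2.99% to 14.9% of 1.5-fold changes and 70.1% to 88.1% of 2-fold changes. With fewer genes changed, the adjusted p threshold is harder to pass, so these rates do not measure recovery in the data. A gene that did not pass may still differ. The members, role groups, other pathway genes and 8 marker lists were chosen with earlier results of these data known. Named with all array values are, per role, the 5 genes with the largest difference among those called. Of the other pathway genes, the 2 largest rises and 2 largest falls per comparison were named, not all with array values. Bmp4, Bmp2, Gdf5, Tgfb2, Tgfbr1 and other genes outside that rule were named after their values were seen. Alternatives covered normalization, background, filter, probe choice, fit, replicate block and each array left out. No genome build was used for the expression values.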

Additional observations from a re-analysis of the deposited data

How the results depend on the processing

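With 1 array left out at a time, the pathway genes called numbered 26 to 36 in GSC colonies and 27 to 34 in PGC colonies over sorted cells, and 12 to 17 in GSC over PGC colonies; the share of all genes called ranged over 34.3% to 50.5%, 33.3% to 46% and 9.41% to 13.3%. The other pathway genes called numbered 17 to 21, 17 to 24 and 7 to 12, the last being lowest without PGC colony replicate 2. Over the alternatives chosen at the outset, 24 of 32, 25 of 32 and 11 of 16 gene calls kept direction and threshold in these 3 comparisons wherever the gene was tested. Without normalization between arrays the Smad2 difference in GSC colonies over sorted cells turned to 0.12, and 3 genes not called before passed with the opposite sign, Lefty1 at 0.42, Smad3 at 0.56 and Id2 at 0.55. In PGC colonies over sorted cells Lefty1 at 0.40, Smad2 at 0.47 and Smad4 at 0.46 did so. Under that setting the median of all genes shifted by 0.465 and 0.423, and the calls for Gdf9 and Bmpr1b in GSC colonies, Bmpr1b in PGC colonies, Lefty2 in both, and Id1, Id3 and Nog between the colonies were lost. Centring arrays on their medians lost Bmpr2 and Smad2 over sorted cells and Id1 and Id3 between the colonies, and fits of the compared groups alone lost Id1, Id3, Nog and Smad6 between the colonies. On its other probe Smad2 differed by 0.081 in GSC colonies over sorted cells, an alternative chosen after seeing the data. A sign change of a difference that passed in neither setting occurred for 43 of 73 uncalled results and is not listed.

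Sample titles number the arrays of a group and name no pairing between groups. Same-numbered deviations correlated at -0.179 between GSC and PGC colonies, -0.342 between GSC colonies and sorted cells and 0.326 between PGC colonies and sorted cells. These correlations cannot show whether the numbers carry a pairing. With the replicate number as a block, 31, 32 and 13 pathway genes were called in GSC over sorted, PGC over sorted and GSC over PGC arrays, with 44%, 42.9% and 11% of all genes; the calls for Gdf9 and Smad2 over sorted cells, and for Id1, Id3, Nog and Smad6 between the colonies, were lost. With the GSC colony numbers crossed, chosen after seeing the data, 34, 32 and 18 were called, with 50.7%, 49.6% and 17.5% of all genes. Signal over background is known only through the 30th percentile, so the 4 dim genes were not tested and folds over groups under it are bounds.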

Other observations

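The spread between the arrays of a group was uneven over the 51 pathway genes. The median absolute log2 difference between the arrays of a pair was 0.122 for GSC colonies, 0.223 for PGC colonies and 0.0872 for sorted cells. The pair of GSC colony arrays differed by more than 1 for 3 genes, Gdf5 at 2.58, Tgfbr1 and Bambi. The PGC colony arrays did so for 2, Bambi at 1.15 and Gdf5, and the sorted arrays for 0, where Bambi also had the largest difference at 0.68. Tgfbr1 and the second Smad5 probe were both lower on GSC colony replicate 1 than on replicate 2, and Gdf5 and Bambi were both higher there.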
